A study of Astyanax mexicanus with 12 samples.

Results

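A set of 34 miRNAs stood lower in embryos of the Molino cavefish than in those of the Pachón cavefish, the Tinaja cavefish, and the surface fish. These morphs belong to 1 species, *Astyanax mexicanus*: the surface fish live in rivers, and each cavefish is named after its cave. Wild-type (WT) whole embryos of all 4 morphs were taken at 24 h post fertilization (24 hpf), without any treatment, and small RNA was sequenced in 3 replicate libraries per morph, 12 libraries in all. The methods describe embryos pooled by morph, and nothing in the sources used here says how a pool was divided among libraries. SDs and p-values therefore measure the spread between these libraries, which may be technical.

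The 34 miRNAs were chosen by their level. The level of a miRNA in a library was expressed in CPM, its reads per 1000000 miRNA reads of that library. For each morph, the mean CPM of the 3 libraries was placed on a log2 scale after adding 0.5, and the 4 values were sorted. A miRNA belonged to the set when the widest gap between neighboring values was at least 0.7 and separated Molino, at the low end, from the other 3 morphs. A mean of at least 10 counts over the 12 libraries was also required, which 503 of the 683 listed miRNAs met. The difference between Molino and the other morphs is thus the property that defines the set. It is described below without a test. Differences among Pachón, Tinaja, and surface fish were not asked for, although the rule keeps each gap among them smaller than the gap to Molino.

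miRNAs are short RNAs cut from hairpin precursors and loaded into a silencing complex. There they pair with matching sites, mostly in the 3′ UTR of mRNAs, and lower the translation or the stability of these mRNAs. In zebrafish embryos, miRNAs help to clear maternal transcripts, and many later miRNAs are restricted to single tissues such as muscle or brain. The names used here are catalogue numbers that the authors gave to the *A. mexicanus* miRNAs. A number shared with a miRNA of another animal marks no kinship, and the table pairs them with no sequence, family, or target, so no role is attached to any of the 34. In whole embryos, fewer cells that make a miRNA and less of it per cell cannot be told apart. Library preparation also favors some small RNAs over others, so levels are compared between morphs rather than between miRNAs.

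The Molino libraries held 7683993 to 8275406 counts. The totals of the Pachón libraries lay between 10035615 and 15279059, those of the Tinaja libraries between 7565642 and 14673376, and those of the surface fish libraries between 5539157 and 8537696. In the Molino libraries, a floor of 3 counts per library lay at 0.363 to 0.390 CPM. The floor covers counting error only, since several reads can be copies of 1 molecule. Libraries of the same morph differed by more than counting noise (chi-square of 13.1 to 641 per degree of freedom), so none was taken for a copy of another. Scaling factors between libraries (TMM) lay between 0.937 and 1.14.

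The 34 miRNAs covered a wide range of abundance, with mean counts per library of 10.6 to 123971 (median 74.3, compared with 95.7 for all 503). Together they made up 0.754% ± 0.0730 of the counts in Molino, 1.91% ± 0.144 in Pachón, 1.53% ± 0.198 in Tinaja, and 1.55% ± 0.0592 in surface fish (SD, n = 3 libraries each). Most of this came from astmex-miR-13. The other members held 0.0955% ± 0.00522 in Molino, 0.236% ± 0.0118 in Pachón, 0.266% ± 0.0234 in Tinaja, and 0.202% ± 0.00580 in surface fish (SD, n = 3). The gap to the next morph had a median of 1.31 log2 units and ran from 0.73 to 4.74. Where Molino had at most 3 counts in every library, the size of the gap depends on the 0.5 that was added. In all 34 miRNAs the 3 Molino libraries lay below each of the 9 other libraries, as they did in 17.3% of the 503 miRNAs. This follows in part from the choice by gap, and the 17.3% includes the 34 themselves. The gap of every member was larger than the SD between libraries of a morph, by 2.10 to 43.5 times (median 6.49). The rule asks for a gap of at least 0.7, and the largest SD in the set was 0.51. That every gap exceeded the SD thus largely follows from how the members were chosen. Counts of 0 in all Molino libraries add no spread, which raises the ratio of such members. The SD had a median of 0.21 log2 units in the set and 0.22 in all 503 miRNAs.

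**Figure D1:**
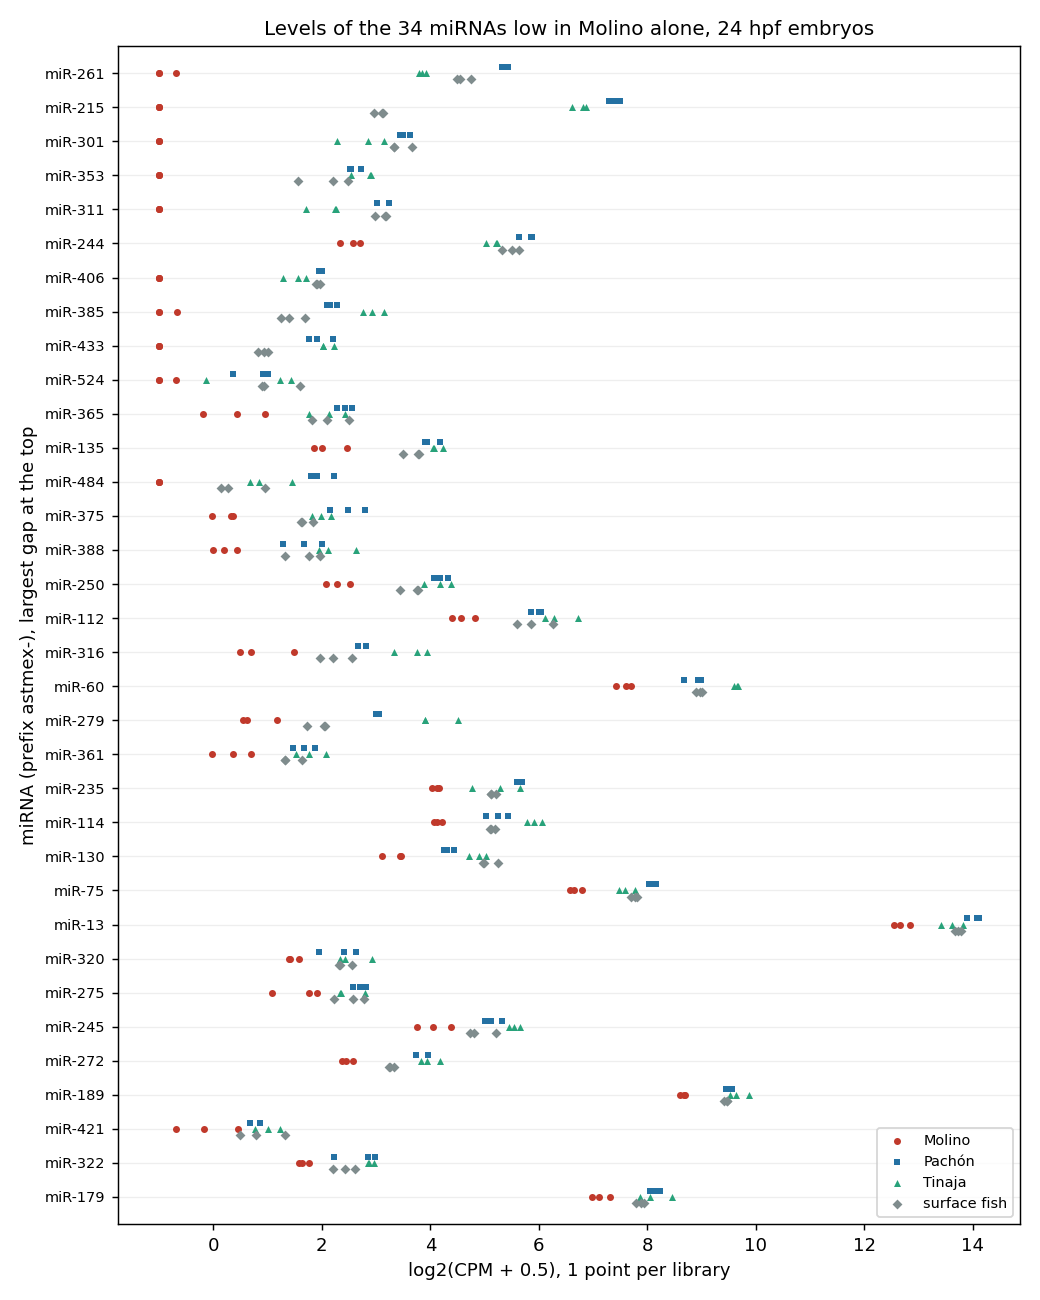
Levels of the 34 miRNAs as log2(CPM + 0.5) on the horizontal axis, with a point for each of the 12 libraries and a row for each miRNA, from the widest gap (astmex-miR-261, 4.74) at the top to the narrowest (astmex-miR-179, 0.73) at the bottom. The 3 Molino points lie left of all other points in every row.

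By their level in Molino the miRNAs fell into 3 groups: 10 with at most 3 counts in every Molino library, 15 with more counts and a Molino mean under 10 CPM, and 9 with a Molino mean of 10 CPM or more. The first group was close to undetected in Molino. Of its members, 7 had no count in any Molino library, and 3 had 1 count in 1 library. All 10 had counts in each of the 9 libraries of the other morphs. Reads were counted on precursors called on 1 genome, and whether sequence differences between morphs affected these counts was not tested.

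astmex-miR-261 had the widest gap. It had 0, 1, and 0 counts in the Molino libraries, against 42.8, 39.4, and 41.3 CPM in Pachón, 13.3, 14.0, and 14.7 CPM in Tinaja, and 23.0, 22.1, and 26.5 CPM in surface fish. The groups of libraries did not overlap between any morphs, and the levels ran upward from Molino through Tinaja and surface fish to Pachón. With 1 read in Molino the ratio is poorly fixed. The pooled rate was 983 times the Molino rate in Pachón (95% exact interval 176 to 38851), 333 times in Tinaja (59.5 to 13191), and 567 times in surface fish (101 to 22436). These intervals cover counting error only.

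astmex-miR-215 was the most abundant of the 10 in the other cave morphs. None of the Molino libraries had a read of it. It reached 166, 157, and 181 CPM in Pachón and 112, 97.5, and 116 CPM in Tinaja, against 8.20, 7.32, and 8.12 CPM in surface fish. Against a level of 3 counts per library, it was thus at least 447-fold lower in Molino than in Pachón, at least 288-fold lower than in Tinaja, and at least 21.0-fold lower than in surface fish. Molino and surface fish were both far below Pachón and Tinaja, and the gap between Molino and surface fish (4.07) only slightly exceeded that between surface fish and Tinaja (3.70). With a pseudocount of 1 in place of 0.5, astmex-miR-215 no longer met the rule.

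astmex-miR-301, astmex-miR-353, astmex-miR-311, and astmex-miR-406 were also without a count in Molino and stood at similar, low levels elsewhere. astmex-miR-301 was at 10.3, 11.8, and 10.8 CPM in Pachón, 4.37, 6.75, and 8.33 CPM in Tinaja, and 9.60, 12.2, and 9.57 CPM in surface fish. This made it at least 29.2-fold, 17.2-fold, and 27.8-fold lower in Molino than in Pachón, Tinaja, and surface fish. astmex-miR-353 had 5.2, 5.30, and 6.08 CPM in Pachón, 7.04, 6.88, and 5.29 CPM in Tinaja, and 2.46, 4.12, and 5.05 CPM in surface fish. The libraries of these 3 morphs overlapped for astmex-miR-353 only between Pachón and Tinaja, the highest surface fish library lying just under the lowest Pachón one. Its level in Molino was at least 14.7-fold, 17.0-fold, and 10.3-fold lower than in Pachón, Tinaja, and surface fish.

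astmex-miR-311 was found at 8.97, 7.59, and 7.57 CPM in Pachón, 4.21, 4.29, and 2.78 CPM in Tinaja, and 8.43, 8.54, and 7.40 CPM in surface fish. It was at least 21.4-fold lower in Molino than in Pachón, 10-fold lower than in Tinaja, and 21.6-fold lower than in surface fish. Tinaja thus held an intermediate position, below every Pachón and surface fish library. astmex-miR-406 had 3.35, 3.53, and 3.39 CPM in Pachón, 1.94, 2.45, and 2.78 CPM in Tinaja, and 3.40, 3.20, and 3.25 CPM in surface fish. Here the lower limits were 9.12-fold, 6.36-fold, and 8.74-fold for Pachón, Tinaja, and surface fish, smaller than for astmex-miR-311 because fewer reads were counted.

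Of astmex-miR-385, a single read was found in Molino, in replicate 1. Its levels were 3.77, 3.93, and 4.38 CPM in Pachón, 6.31, 7.09, and 8.33 CPM in Tinaja, and 1.87, 2.13, and 2.71 CPM in surface fish. The pooled rate exceeded that of Molino 95.9 times in Pachón (95% exact interval 17.0 to 3814), 170 times in Tinaja (30.2 to 6732), and 52.3 times in surface fish (8.92 to 2110). Each morph occupied its own range. astmex-miR-433 had no Molino count and 4.11, 3.27, and 2.89 CPM in Pachón, 3.56, 4.16, and 3.57 CPM in Tinaja, and 1.41, 1.52, and 1.26 CPM in surface fish. Pachón and Tinaja overlapped, and surface fish lay below both. Its level in Molino was at least 9.11-fold, 10-fold, and 3.72-fold lower than in Pachón, Tinaja, and surface fish.

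The last pair of this group was scarce in every morph. astmex-miR-524 had 0, 0, and 1 counts in Molino, against 1.51, 0.785, and 1.40 CPM in Pachón, 2.18, 0.409, and 1.85 CPM in Tinaja, and 1.41, 1.37, and 2.53 CPM in surface fish. Its mean of 10.6 counts was the lowest of the set. The spread between replicates was the widest (SD of 0.51 log2 units), and Tinaja replicate 2 came close to the Molino libraries. Pooled rates were 28.3 times the Molino rate in Pachón (95% exact interval 4.83 to 1144), 32.6 times in Tinaja (5.57 to 1313), and 40.7 times in surface fish (6.83 to 1651). astmex-miR-484 was at 0 in Molino and at 4.19, 3.27, and 2.99 CPM in Pachón, 1.29, 1.09, and 2.25 CPM in Tinaja, and 0.703, 0.610, and 1.44 CPM in surface fish. It was at least 9.27-fold lower in Molino than in Pachón and at least 4.11-fold lower than in Tinaja. Against surface fish the limit was 2.45-fold, and 6, 4, and 8 reads per surface fish library stand behind it.

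**Figure D2:**
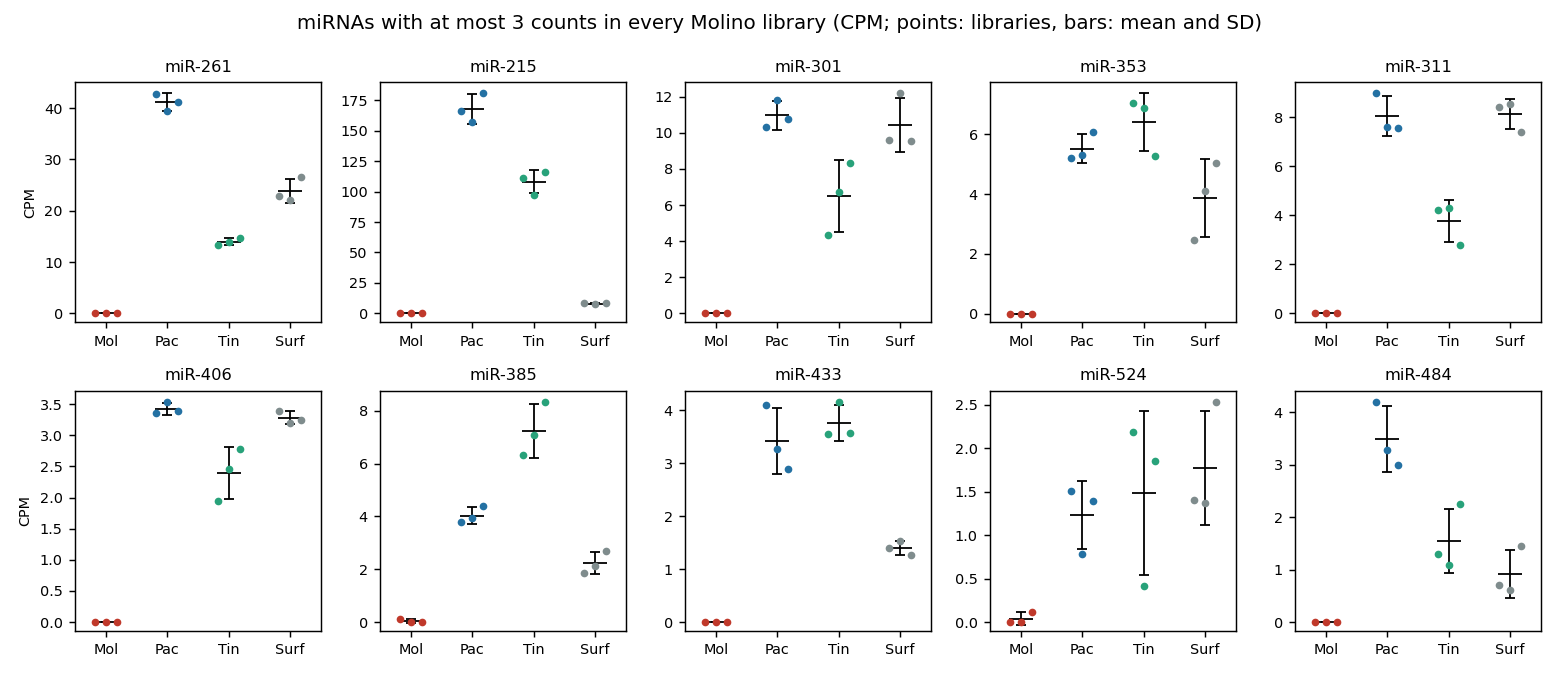
CPM of the 10 miRNAs with at most 3 counts in every Molino library, with a panel for each miRNA and the morphs along the horizontal axis (Mol, Molino; Pac, Pachón; Tin, Tinaja; Surf, surface fish). Points are libraries, and bars give the mean and SD (n = 3); the Molino points lie at or next to 0, whereas astmex-miR-215 averages 168 CPM in Pachón.

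In the group of 15 with a Molino mean under 10 CPM, mean levels in Molino were 0.462 to 9.66 CPM. Mean levels were 1.17 to 54.8 CPM in Pachón, 1.52 to 35.4 CPM in Tinaja, and 1.37 to 44.6 CPM in surface fish. astmex-miR-244 stood out with a gap of 2.62. Its levels were 4.55, 5.99, and 5.44 CPM in Molino, against 57.2, 49.1, and 58.0 CPM in Pachón, 37.2, 32.2, and 36.6 CPM in Tinaja, and 44.9, 39.5, and 49.5 CPM in surface fish. It was clearly present in Molino, unlike the miRNAs with gaps of similar size. Its mean in Pachón, Tinaja, and surface fish was 10.3, 6.64, and 8.37 times that in Molino.

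For astmex-miR-365, astmex-miR-135, astmex-miR-375, and astmex-miR-388, the next morph was at least 3 times as high as Molino. astmex-miR-365 averaged 0.884 ± 0.530 CPM in Molino, against 4.87 ± 0.504 CPM in Pachón, 3.90 ± 0.989 CPM in Tinaja, and 4.0 ± 1.07 CPM in surface fish (SD, n = 3 here and for the means that follow). The Molino libraries themselves differed widely, with 11, 3, and 7 counts. astmex-miR-135 was at 3.88 ± 0.978 CPM in Molino, 15.7 ± 1.70 CPM in Pachón, 16.8 ± 1.18 CPM in Tinaja, and 12.5 ± 1.46 CPM in surface fish. astmex-miR-375 was at 0.671 ± 0.163 CPM in Molino, 5.17 ± 1.28 CPM in Pachón, 3.51 ± 0.491 CPM in Tinaja, and 2.75 ± 0.280 CPM in surface fish. The last of the 4, astmex-miR-388, was at 0.665 ± 0.174 CPM in Molino, 2.70 ± 0.780 CPM in Pachón, 4.28 ± 1.24 CPM in Tinaja, and 2.77 ± 0.727 CPM in surface fish. Pachón and surface fish were nearly level for astmex-miR-388, while surface fish were the next morph above Molino for astmex-miR-135 and astmex-miR-375.

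astmex-miR-250, astmex-miR-316, and astmex-miR-279 had gaps of 1.36, 1.31, and 1.14. astmex-miR-250 averaged 4.44 ± 0.732 CPM in Molino, 17.8 ± 1.74 CPM in Pachón, 17.4 ± 3.03 CPM in Tinaja, and 12.1 ± 1.60 CPM in surface fish. astmex-miR-316 averaged 1.44 ± 0.746 CPM in Molino, 6.34 ± 0.386 CPM in Pachón, 12.5 ± 2.67 CPM in Tinaja, and 4.31 ± 0.993 CPM in surface fish. For both, surface fish came next above Molino, and for astmex-miR-316 Tinaja was the highest by a wide margin. astmex-miR-279 was graded over the morphs, with 1.04, 1.75, and 0.967 CPM in Molino, 7.46, 7.79, and 7.57 CPM in Pachón, 14.5, 14.4, and 22.3 CPM in Tinaja, and 2.81, 3.66, and 3.61 CPM in surface fish. Its 3 gaps, from Molino upward, were 1.14, 1.07, and 1.12 log2 units, so that nearly equal steps separated Molino, surface fish, Pachón, and Tinaja. Its place among miRNAs that set Molino apart was accordingly the least settled. It met the rule in 6 of the 12 cases in which 1 library was left out, and did not without Molino replicate 1 or 3, Tinaja replicate 1 or 2, or surface fish replicate 2 or 3.

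The remaining 7 of this group had gaps of 1.05 or less. astmex-miR-361 averaged 0.796 ± 0.320 CPM in Molino, 2.71 ± 0.463 CPM in Pachón, 3.0 ± 0.662 CPM in Tinaja, and 2.19 ± 0.348 CPM in surface fish. The levels of astmex-miR-130 were 9.66 ± 1.36 CPM in Molino, 19.7 ± 1.46 CPM in Pachón, 29.1 ± 3.22 CPM in Tinaja, and 33.2 ± 3.63 CPM in surface fish. This was 1 of 3 members with the highest mean in surface fish, the others being astmex-miR-311 and astmex-miR-524. astmex-miR-272 was at 5.04 ± 0.410 CPM in Molino, 14.3 ± 1.30 CPM in Pachón, 15.4 ± 2.05 CPM in Tinaja, and 9.19 ± 0.325 CPM in surface fish.

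astmex-miR-320 and astmex-miR-275 were about level in the 3 other morphs. astmex-miR-320 was at 2.26 ± 0.189 CPM in Molino, 4.60 ± 1.17 CPM in Pachón, 5.52 ± 1.41 CPM in Tinaja, and 4.82 ± 0.489 CPM in surface fish. astmex-miR-275 was at 2.59 ± 0.858 CPM in Molino, 6.02 ± 0.532 CPM in Pachón, 5.22 ± 1.08 CPM in Tinaja, and 5.32 ± 1.10 CPM in surface fish. Its values outside Molino spanned 0.19 log2 units, the narrowest range of the set.

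astmex-miR-322 had the second smallest gap of all members, 0.76. Its levels were 2.60, 2.5, and 2.90 CPM in Molino, 4.19, 6.68, and 7.37 CPM in Pachón, 6.80, 6.68, and 7.27 CPM in Tinaja, and 4.10, 4.88, and 5.60 CPM in surface fish. Pachón replicate 1 fell among the surface fish libraries, far from the other Pachón libraries. astmex-miR-421 was the member with the smallest gap relative to its spread. It had 3, 7, and 1 counts in Molino, or 0.462 ± 0.381 CPM, against 1.17 ± 0.125 CPM in Pachón, 1.52 ± 0.319 CPM in Tinaja, and 1.37 ± 0.560 CPM in surface fish. Its highest Molino library, at 0.873 CPM, nearly touched the lowest surface fish library, at 0.903 CPM. It left the set without Molino replicate 3 (gap 0.56) and without surface fish replicate 1 (gap 0.70, just under the limit).

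**Figure D3:**
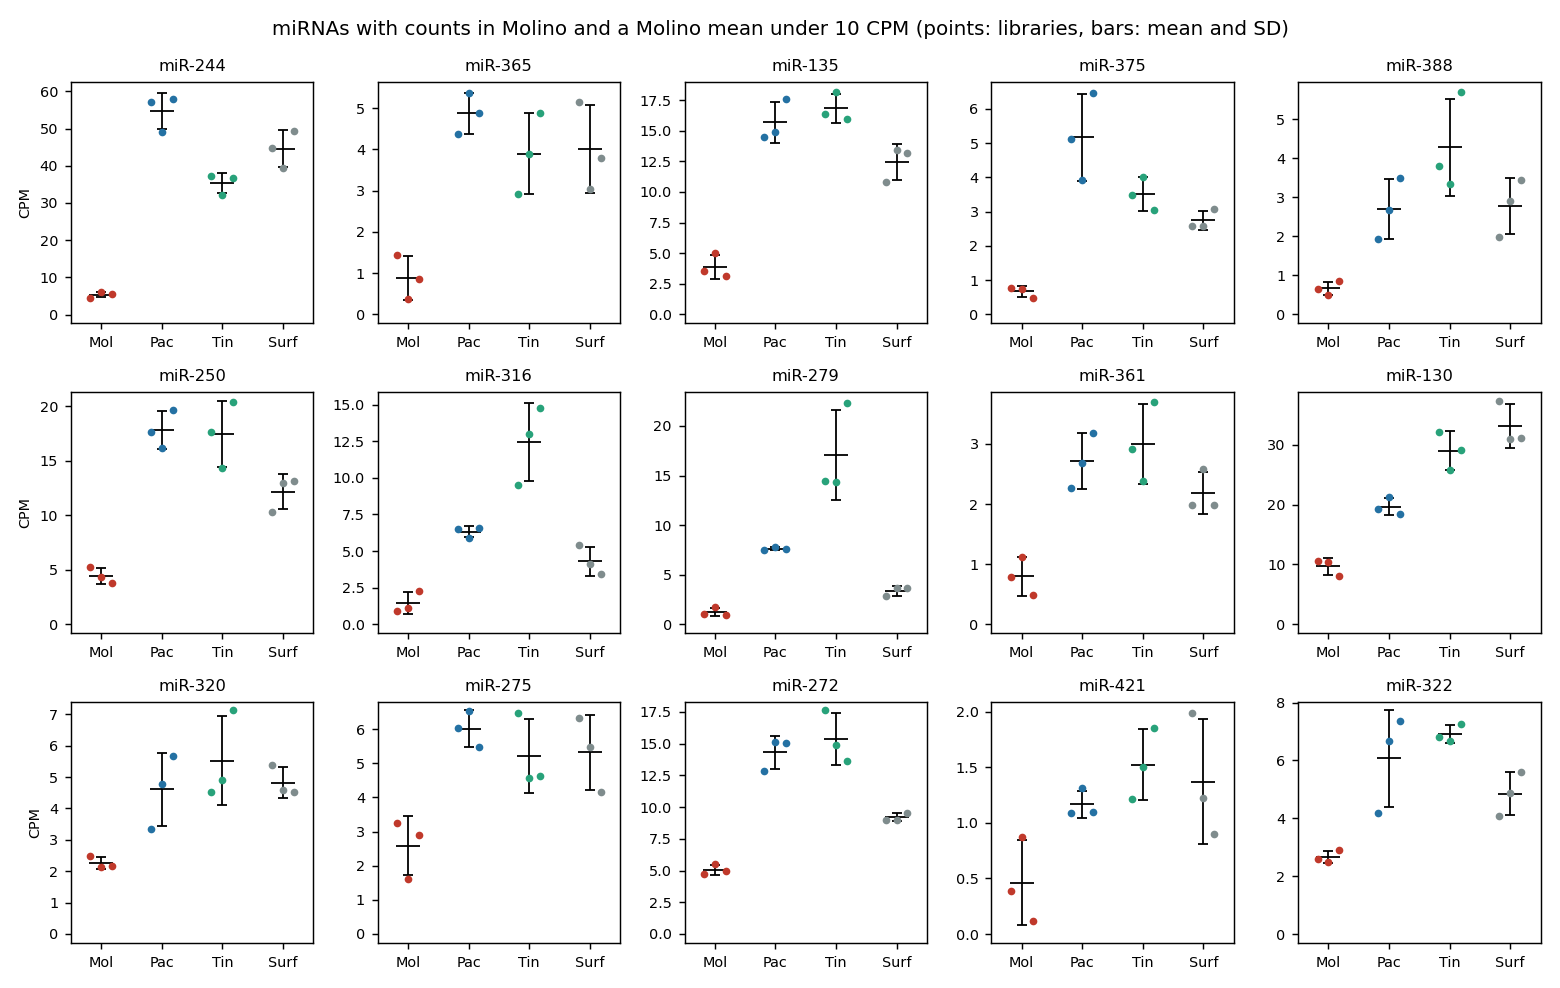
CPM of the 15 miRNAs with more than 3 counts in some Molino library and a Molino mean under 10 CPM, a panel for each, with the morphs along the horizontal axis (Mol, Molino; Pac, Pachón; Tin, Tinaja; Surf, surface fish). Points are libraries and bars the mean and SD (n = 3); astmex-miR-244 has the widest separation, at most 5.99 CPM in Molino and at least 32.2 CPM elsewhere, and astmex-miR-421 the narrowest.

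The 9 miRNAs with a Molino mean of 10 CPM or more had gaps of 0.73 to 1.31. astmex-miR-13 led them in abundance, with 7325, 6421, and 5996 CPM in Molino, against 15268, 17821, and 17193 CPM in Pachón, 12586, 10926, and 14439 CPM in Tinaja, and 13494, 12984, and 14053 CPM in surface fish. Its share of all miRNA counts was thus 0.658% ± 0.0679 in Molino, 1.68% ± 0.133 in Pachón, 1.27% ± 0.176 in Tinaja, and 1.35% ± 0.0535 in surface fish (SD, n = 3). No Molino library came near the lowest other library, Tinaja replicate 2. The means in Pachón, Tinaja, and surface fish were 2.55, 1.92, and 2.05 times the Molino mean.

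astmex-miR-189 was found at 409, 416, and 389 CPM in Molino, 697, 756, and 726 CPM in Pachón, 734, 796, and 940 CPM in Tinaja, and 709.8, 685, and 711 CPM in surface fish. The other 3 morphs were nearly level, within 0.23 log2 units of each other. astmex-miR-60 was at 207, 195, and 172 CPM in Molino, 407, 491, and 507 CPM in Pachón, 799.7, 777, and 815 CPM in Tinaja, and 503, 475, and 515 CPM in surface fish. Here Tinaja was highest, at 4.16 times the Molino mean, while Pachón and surface fish, which overlapped, were 2.45 and 2.60 times as high.

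astmex-miR-75 had 110.2, 100.3, and 94.4 CPM in Molino, 263, 278, and 284 CPM in Pachón, 193, 177, and 219 CPM in Tinaja, and 218, 208, and 224 CPM in surface fish. Pachón was highest, at 2.70 times the Molino mean, and Tinaja and surface fish overlapped. astmex-miR-179, with the smallest gap of the set, had 157, 127, and 138 CPM in Molino, 264, 285, and 301 CPM in Pachón, 263, 233, and 349 CPM in Tinaja, and 235, 243, and 222 CPM in surface fish. Its mean in surface fish was 1.66 times that in Molino. It met the rule neither without Molino replicate 2 (gap 0.66) nor without surface fish replicate 2 (gap 0.70, just under the limit). With CPM scaled by TMM factors, or with astmex-miR-1 left out of the totals, it did not meet the rule either.

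Further members of this group were astmex-miR-112, astmex-miR-114, astmex-miR-235, and astmex-miR-245. astmex-miR-112 averaged 23.9 ± 3.62 CPM in Molino, 62.2 ± 4.24 CPM in Pachón, 83.5 ± 18.7 CPM in Tinaja, and 60.2 ± 14.3 CPM in surface fish. astmex-miR-114 averaged 17.1 ± 0.829 CPM in Molino, 37.3 ± 5.22 CPM in Pachón, 60.2 ± 5.90 CPM in Tinaja, and 34.7 ± 1.28 CPM in surface fish. In both, Tinaja was the highest morph, at 3.49 and 3.52 times the Molino mean. astmex-miR-235 averaged 16.7 ± 0.858 CPM in Molino, 49.1 ± 1.43 CPM in Pachón, 38.3 ± 11.5 CPM in Tinaja, and 35.0 ± 1.26 CPM in surface fish. Its Tinaja libraries were far apart, at 49.8, 26.9, and 38.3 CPM. astmex-miR-245 averaged 16.5 ± 3.64 CPM in Molino, 35.1 ± 4.08 CPM in Pachón, 46.4 ± 3.35 CPM in Tinaja, and 29.9 ± 5.71 CPM in surface fish.

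**Figure D4:**
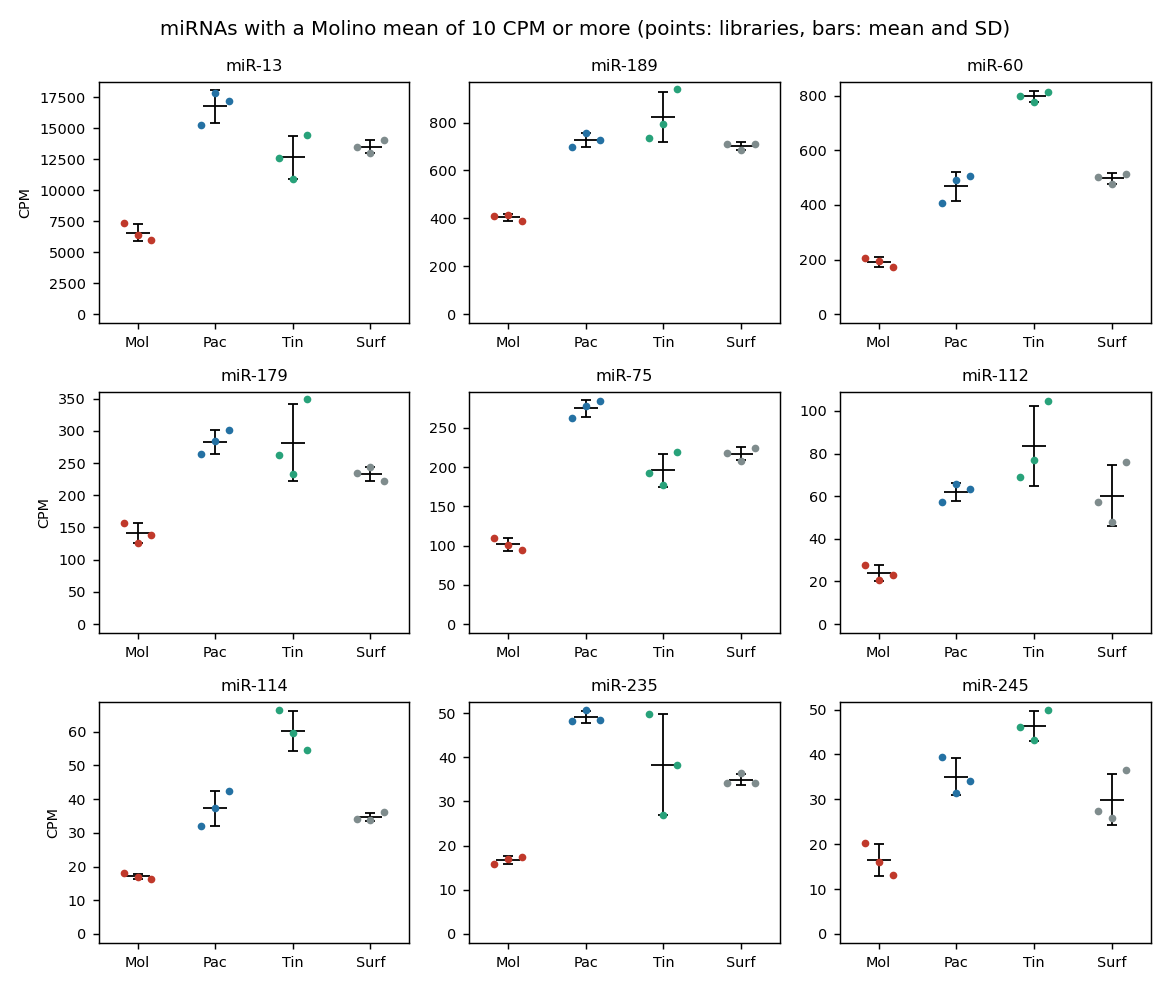
CPM of the 9 miRNAs with a Molino mean of 10 CPM or more, a panel for each in order of abundance, with the morphs along the horizontal axis (Mol, Molino; Pac, Pachón; Tin, Tinaja; Surf, surface fish). Points are libraries and bars the mean and SD (n = 3); the 3 Molino libraries form the lowest group in every panel, as for astmex-miR-13 with 5996 to 7325 CPM in Molino and 10926 CPM or more elsewhere.

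Over the 24 members that were not close to undetected, the Molino mean was 15.1% to 60.3% (median 44.3%) of that of the next morph. The largest ratios over Molino were 10.3 for Pachón (astmex-miR-244), 13.6 for Tinaja (astmex-miR-279), and 8.37 for surface fish (astmex-miR-244). In edgeR's quasi-likelihood test over all 683 miRNAs, a miRNA was called when its Benjamini−Hochberg adjusted p lay under 0.05 and the levels differed 2-fold or more. By this rule 31 members were lower in Molino than in Pachón, where 15.4% of all miRNAs were called in this direction. For Tinaja the number was 29, beside 14.6% of all miRNAs, and for surface fish it was 27, beside 11.3%. The members were chosen by these same differences, so these counts describe the choice. All 3 calls were made for 24 members, 2 for 7, 1 for 1, and none for 2.

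On the side of the rule that was not met, astmex-miR-87 and astmex-miR-213 came closest, with gaps of 0.65 and 0.61. astmex-miR-87 had 139, 135, and 137 CPM in Molino, 219.8, 208, and 218 CPM in Pachón, 288, 269, and 209 CPM in Tinaja, and 250.1, 230.0, and 233 CPM in surface fish. astmex-miR-213 had 81.5, 69.4, and 61.1 CPM in Molino, 105, 109, and 110.3 CPM in Pachón, 99.9, 107, and 136 CPM in Tinaja, and 121, 117, and 118 CPM in surface fish. In these, too, no Molino library reached another library, so the limit of 0.7 cuts through a continuous range rather than marking a break. astmex-miR-570 and astmex-miR-596 met the gap and missed the count minimum, with means of 7.75 and 7.33 counts. astmex-miR-570 had 0, 2, and 2 counts in Molino, 15, 13, and 9 in Pachón, 21, 11, and 1 in Tinaja, and 5, 8, and 6 in surface fish. astmex-miR-596 had 2, 1, and 1 counts in Molino, 10, 16, and 17 in Pachón, 8, 9, and 7 in Tinaja, and 6, 7, and 4 in surface fish.

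**Figure D5:**
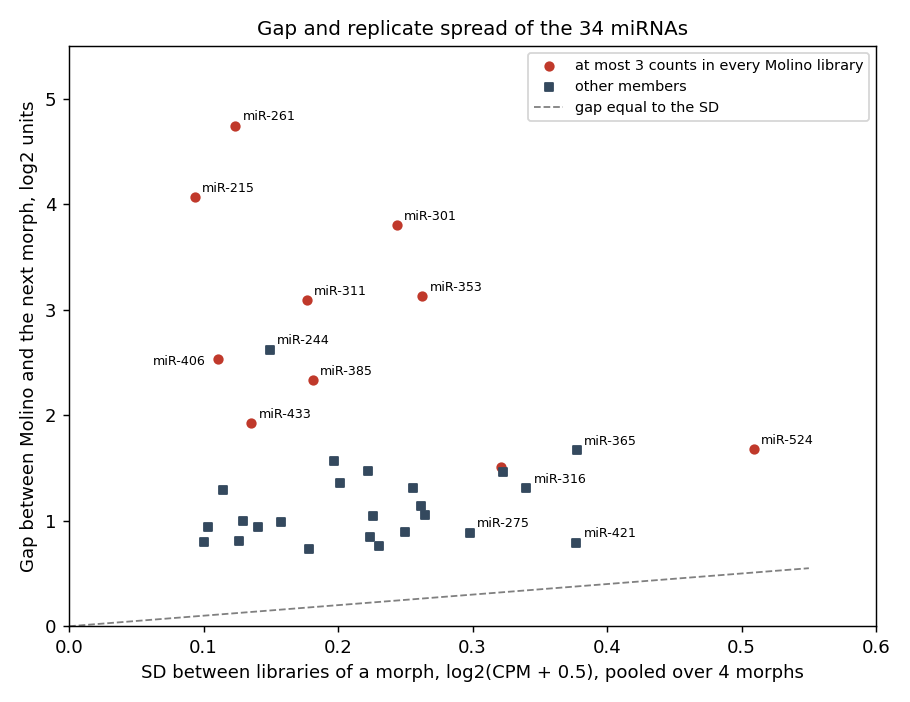
Gap between Molino and the next morph in log2 units on the vertical axis against the SD between libraries of a morph, pooled over the 4 morphs, on the horizontal axis, with a point for each of the 34 miRNAs. All points lie above the dashed line of equal gap and SD; astmex-miR-421 is nearest to it at 2.10 times the SD, and astmex-miR-215 reaches 43.5 times.

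Among the other 3 morphs, the range of a member's 3 values had a median of 0.60 log2 units. It was under 1 in 26 members, and over all 503 miRNAs the median was 0.77. The rule holds this range down, since it admits no gap wider than that to Molino. The range exceeded the gap to Molino in 3 members, of which astmex-miR-215 had the widest, 4.33. Surface fish were next above Molino in 19 members (55.9%), Tinaja in 9 (26.5%), and Pachón in 6 (17.6%). Over all 503 miRNAs the lowest of these 3 morphs was surface fish in 35.4%, Tinaja in 31.8%, and Pachón in 32.8%. The highest morph was Tinaja in 17 members, Pachón in 14, and surface fish in 3 (8.82%, against 33.2% of all 503). The gap limit favors no particular order of these 3 morphs, but the count minimum can. It uses raw counts, and every Pachón library and most Tinaja libraries were deeper than those of surface fish. A scarce miRNA near 0 in Molino thus passes more easily when it is high in Pachón or Tinaja than in surface fish. How far this shaped the shares was not tested. The members also share their libraries, and these shares are given without a test.

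The differences among Pachón, Tinaja, and surface fish were tested in the same edgeR fit, with p-values adjusted over all 683 miRNAs. Between Pachón and surface fish, 4 of the 34 members passed both thresholds, where 29.7% of all miRNAs did. For Tinaja and surface fish the number was 6, beside 28.7% of all miRNAs, and for Pachón and Tinaja it was 4, beside 24.9%. The rule itself holds these numbers down, since it admits no gap wider than that to Molino. These 3 comparisons share libraries in pairs. Altogether 8 members were called in at least 1 of them, where 45.2% of all miRNAs were, and 26 in none.

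Without the fold-change limit, 15 members passed for Pachón and surface fish, beside 49.8% of all miRNAs. For Tinaja and surface fish 20 passed, beside 48.5%, and for Pachón and Tinaja 18, beside 45.8%. Across the 34 members, the median log2 fold change was 0.32 for Pachón over surface fish and 0.41 for Tinaja over surface fish. Beside these stood 0.03 and 0.00 for all 683 miRNAs, and 0.03 and 0.02 for the 503. For Pachón over Tinaja the median was −0.10 in the members, 0.05 in all 683, and 0.03 in the 503. The count minimum can favor miRNAs high in Pachón or Tinaja, and how far it shaped these medians was not tested.

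astmex-miR-215 was higher in Pachón than in surface fish, by 4.43 log2 units (standard error 0.10, adjusted p = 1.77e-13), and in Tinaja than in surface fish by 3.77 (standard error 0.10, adjusted p = 9.48e-13). Every Pachón and Tinaja library exceeded every surface fish library more than 10-fold, as listed above. astmex-miR-279 exceeded its surface fish level by 1.22 log2 units in Pachón (standard error 0.20, adjusted p = 1.09e-04). In Tinaja the excess was 2.32 (standard error 0.19, adjusted p = 4.48e-08). It was also lower in Pachón than in Tinaja, with a log2 difference of −1.10 (standard error 0.16, adjusted p = 2.21e-05), a call that was lost without Tinaja replicate 3 (−0.97).

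astmex-miR-433 was higher in both other cave morphs than in surface fish, by 1.30 log2 units in Pachón (standard error 0.29, adjusted p = 0.00198). The Tinaja value was 1.43 (standard error 0.29, adjusted p = 9.44e-04). Most counts of astmex-miR-433 came from Pachón (128) and Tinaja (132), with 29 in surface fish. It met the count minimum mainly through the morphs that were high, so these p-values are not independent of the choice of members either. For astmex-miR-484, Pachón stood above surface fish by 2.0 log2 units (standard error 0.37, adjusted p = 4.64e-04) and above Tinaja by 1.28 (standard error 0.31, adjusted p = 0.00353). This miRNA met the count minimum mainly through Pachón, with 130 counts there, 49 in Tinaja, and 18 in surface fish. Both of its p-values are therefore not independent of the choice of members. The 3 Pachón libraries of astmex-miR-484, at 2.99 CPM or more, all exceeded the highest Tinaja library, at 2.25 CPM.

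Called higher than surface fish in Tinaja but not in Pachón, astmex-miR-385 differed from surface fish by 1.70 log2 units (standard error 0.22, adjusted p = 9.03e-06) and astmex-miR-316 by 1.48 (standard error 0.23, adjusted p = 6.01e-05). Pachón was above surface fish by 0.89 (adjusted p = 0.0052) for astmex-miR-385 and by 0.54 (adjusted p = 0.0799) for astmex-miR-316. Between Pachón and Tinaja directly, neither was called, with −0.81 and −0.94, under the 2-fold limit. No other member than astmex-miR-311 was called lower in a cave morph than in surface fish outside Molino, with −1.06 in Tinaja (standard error 0.22, adjusted p = 0.00119) and 1.06 in Pachón over Tinaja (standard error 0.21, adjusted p = 8.14e-04). Its fold change lay near the limit of 2. The call against surface fish was lost without surface fish replicate 1 (−0.99), surface fish replicate 2 (−0.99), or Tinaja replicate 3 (−0.86), and that against Pachón without Pachón replicate 1 (0.97) or Tinaja replicate 3 (0.86). astmex-miR-261 was higher in Pachón than in Tinaja by 1.58 log2 units (standard error 0.12, adjusted p = 1.27e-08).

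The same rule applied to each other morph gave 11 miRNAs low in Pachón alone, 20 low in Tinaja alone, and 24 low in surface fish alone. Molino was thus the morph most often set apart at the low end, and it was so under all 24 alternative ways of applying the rule, with 23 to 41 miRNAs for Molino, 8 to 17 for Pachón, 13 to 26 for Tinaja, and 15 to 32 for surface fish. Of these sets, 10 of 34 miRNAs in Molino, 1 of 11 in Pachón, 5 of 20 in Tinaja, and 3 of 24 in surface fish stayed at or under 3 counts in each library of the low morph. Depth differed between the morphs, and with all libraries thinned to the total of the shallowest the numbers of miRNAs were 29, 12, 20, and 20. High in Molino alone were 49 miRNAs. These numbers are counts of miRNAs from the same libraries and carry no test.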

How the data were processed

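Small RNA was extracted from 24 hpf embryos of the 4 morphs and sequenced as single reads. According to the methods and the submitters' processing notes, the authors trimmed adapters with cutadapt 2.5, discarded reads under 18 bp, removed reads on rRNAs, tRNAs, and other structural RNAs, called miRNAs with miRDeep2 from all reads combined on the *A. mexicanus* 2.0 genome, kept candidates by score and reads or by a seed shared with zebrafish miRNAs, and merged identical ones. The notes also list the GRCz11 build. They counted each library on the precursors. The deposited values are raw counts per mature miRNA and library. Morphs and replicate numbers came from the sample titles, and 0 columns of values were left unused. Calling on 1 genome means that sequence differences between morphs could affect a count. Mature sequences and positions were not analysed here.

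CPM values used column totals. Tests were run with edgeR 4.0.16 in R 4.3.3 (TMM factors, estimateDisp, glmQLFit, and glmQLFTest, 1 fit of 12 libraries, no low-count filter, 683 miRNAs, Benjamini−Hochberg adjustment); the methods name edgeR and these thresholds, not the test function. Standard errors were taken as the log2 fold change divided by the square root of F. The script was tested on simulated data. Alternatives were other pseudocounts, gaps, count minimums, and scalings, medians, thinning, DESeq2 1.42.0, filters, pairwise fits, a replicate block, and leaving out each library. All members are named. Values of every library are given for the 10 widest gaps, the 5 most abundant, those with at most 3 counts in every Molino library, those next to the limits, and the 2 largest changes among the other morphs per comparison; some others were added after their values were seen. Members and rules were chosen with earlier results of these data known.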

Additional observations from a re-analysis of the deposited data

Results flagged for a closer look

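Among the 34 miRNAs, 4 differed at least 2-fold between Pachón and Tinaja, beside 24.9% of all miRNAs, so that for these 4 the difference from surface fish was not the same in both cave morphs. The difference was tested directly in the fit of all 12 libraries (edgeR's quasi-likelihood test, adjusted over 683 miRNAs). As log2 fold changes of Pachón over Tinaja, the values were 1.58 for astmex-miR-261 (adjusted p = 1.27e-08), 1.28 for astmex-miR-484 (adjusted p = 0.00353), 1.06 for astmex-miR-311 (adjusted p = 8.14e-04), and −1.10 for astmex-miR-279 (adjusted p = 2.21e-05). Because astmex-miR-484 met the count minimum mainly through Pachón, its p-value is not independent of the choice of members. Without Tinaja replicate 3, astmex-miR-311 (0.86) and astmex-miR-279 (−0.97) no longer reached 2-fold, and without Pachón replicate 1 astmex-miR-311 did not either (0.97). In each of the 4, all 3 libraries of the higher morph exceeded all 3 of the lower one. Outlying libraries within a morph were not searched for by a gap test, which was set for groups of 4 or more.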

How the results depend on the processing

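The number of miRNAs low in Molino alone was 34 and ran from 23 to 41 over the alternatives. It was 36 with a pseudocount of 0.1 and 30 with 1, 41 with a gap of 0.5 and 23 with 1, 39 with a mean of 5 counts, 27 with 30, 33 with TMM factors, 37 with medians, and 29 with thinned counts; 32 with astmex-miR-1 left out of the totals was chosen after seeing the data. With 1 library left out, it was 31 to 35. Membership held in all 12 of these cases for 27 of the 34, and under every alternative for 15. Besides those named above, membership was lost by astmex-miR-275 without Molino replicate 2, astmex-miR-245 and astmex-miR-322 without surface fish replicate 3, and astmex-miR-524 without Pachón replicate 1 or Tinaja replicate 1. The Molino libraries lay below all others in 33 members with TMM factors and in 34 whichever library was left out. The gap exceeded the SD in 34 whichever library was left out and with a pseudocount of 1, as the choice by gap makes likely. Some call of a difference from Molino was lost under an alternative in 7 members, most often in astmex-miR-421.

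A minimum of 10 counts in every library left 17 members for testing, since it removes those near 0 in Molino. Of these, 13 were called lower in Molino than in Pachón, 12 than in Tinaja, and 7 than in surface fish. The members were chosen by these same differences, so these counts describe the choice. The share over all miRNAs that passed this filter is not given here. In this edgeR fit the numbers called were 0 for Pachón against surface fish, 0 for Tinaja against surface fish, and 0 for Pachón against Tinaja. At an unadjusted p under 0.05 there were 9, 12, and 9, and at an adjusted p under 0.05 there were 8, 11, and 8. The 8 members called among these morphs without the filter each had a Molino library under 10 counts, so all were removed. The 17 that remained had no such call without the filter either. These results of 0 thus follow from the filter and do not bear on the calls above. DESeq2, without the filter, called 0 of the same 17 in each. Without the fold-change rule, 15, 20, and 18 of the 34 passed, beside 49.8%, 48.5%, and 45.8% of all miRNAs. Leaving out 1 library gave 28 to 33 members lower than in Pachón, 29 to 31 than in Tinaja, and 24 to 27 than in surface fish. With all libraries, 15.4%, 14.6%, and 11.3% of all miRNAs were called in these directions. These counts, too, describe the choice. Among the other morphs, leaving out 1 library gave 4 to 6 for Pachón against surface fish and 5 to 7 for Tinaja against surface fish. For Pachón against Tinaja it gave 2 to 5, the 2 without Tinaja replicate 3. With all libraries, 29.7%, 28.7%, and 24.9% of all miRNAs were called in these comparisons. Of the 14 differences named among these morphs, none changed direction; astmex-miR-311 between Pachón and Tinaja also fell just short with the 6 libraries compared alone (0.999).

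Over all miRNAs the median log2 fold change of Molino with TMM factors was 0.18 against surface fish, 0.15 against Tinaja, and 0.10 against Pachón. Without scaling factors it was 0.13, 0.11, and 0.07. Over the 503 miRNAs from which the members came, it was 0.11, −0.0056, and −5.3e-05 in the same order with TMM factors. Without them it was 0.05, −0.07, and −0.03. With the replicate number as a block, 30, 29, and 26 members were lower in Molino than in Pachón, Tinaja, and surface fish. Without the block these numbers were 31, 29, and 27, beside 15.4%, 14.6%, and 11.3% of all miRNAs. The share of all miRNAs with the block is not given here. As the members were chosen by these differences, the counts describe the choice. Among the other morphs 4, 6, and 4 members differed, the same with and without the block. Without the block, 29.7%, 28.7%, and 24.9% of all miRNAs did. Libraries of the same number showed little shared variation (correlations of −0.18 to 0.15, and 3 of 12 libraries closest to their own number). No pairing by number was thus seen, but with so few libraries per morph this cannot exclude one. With few counts precision is low, as for astmex-miR-524 with a mean of 10.6.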
